A study of Zea mays with 12 samples.

Results

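The genes described here are the annotated maize genes whose identifiers surround that of mop1 on chromosome 2. They were chosen by identifier alone, as the rows from Zm00001d002800 to Zm00001d003900 of the gene table, except for 4 identifiers in that range that are not reported here, which left 599 genes of 28534 annotated genes and 38444 features in all. No expression value was used to choose them. Identifier numbers of the B73 version 4 annotation follow gene order, and 59 identifiers in the range could be matched to a RefSeq gene, all of them on chromosome 2 with 0 steps out of order. Of the 599 genes, 414 passed the filter of 0.58 CPM (counts scaled to the sum of the library) in at least 3 libraries and were tested, 185 did not, and 32 of those had 0 counts in every library. The filter keeps a gene that is high in 1 group only, so the tested genes do not stand for all 599.

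The gene mop1 encodes an RNA-dependent RNA polymerase of the RNA-directed DNA methylation pathway. The enzyme copies transcripts of repeats into double-stranded RNA that is cut into small interfering RNAs, and these guide DNA methylation in the CHH context near genes and transposons. It is known in maize for its part in paramutation and transposon silencing. A mutation that is introgressed into an inbred line by crossing also carries neighbouring chromosome from the donor, so that plants homozygous for the mutation can differ from their siblings at linked genes as well as at the mutated gene.

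The plants were homozygous mop1-1 seedlings, with the mutation introgressed into the B73 inbred, and their homozygous Mop1 siblings (WT) from a selfed heterozygous plant. Seedlings at the V3 stage stood with their roots for 1 h in liquid Murashige and Skoog medium with 50 µM abscisic acid (ABA) or without it (MS), and RNA came from the shoots. The 4 groups, WT MS, WT ABA, mop1-1 MS and mop1-1 ABA, had 3 biological replicates each, 12 libraries in all. Group C compared mop1-1 ABA with WT ABA, Group D compared mop1-1 MS with WT MS, and the genotype effect over both media set the 6 mop1-1 libraries against the 6 WT libraries. Groups A and B compared ABA with MS within mop1-1 and within WT. Since mop1-1 was introgressed by crossing, chromosome linked to it can have entered the mutant plants with it. An effect of the lost MOP1 protein and an effect of the linked chromosome therefore cannot be told apart in any comparison of genotypes below. How much linked donor chromosome the plants of each library carried was not tested. The mop1 gene itself was not analysed here.

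Library sums ranged from 38295994 to 65574775 counts. The shoot genes psad1 of photosystem I, rca1 (Rubisco activase) and psbs1 (PsbS of photosystem II) were at 317 CPM or more in every library and were not called for genotype. Libraries WT ABA 1 and WT ABA 2 stood apart from the other WT libraries at several of the genes below, with levels between those of the genotypes. Several results that rest on them are given with and without them. The fit without them leaves a single library, WT ABA 3, in its group, which is then assumed to vary like the other groups. Group C calls from that fit are therefore weak. In bulk RNA, fewer cells of a type and less RNA per cell cannot be told apart.

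Genotype differences were more frequent among these genes than among features at large, and they were concentrated around and below mop1. A feature was called when edgeR's quasi-likelihood (QL) test gave it a Benjamini-Hochberg adjusted p of at most 0.05 and when its log2 change was 0.95 or more in size. In Group C, 20 of the 414 tested genes were called, 7 higher and 13 lower in mop1-1, or 4.83% against 1.19% of the 26401 features tested (0.769% higher and 0.424% lower). In Group D, 24 genes were called, 12 higher and 12 lower, or 5.8% against 0.905% of all features (0.689% higher and 0.216% lower). Among annotated genes outside the range the shares were 0.776% in Group C and 0.424% in Group D. Without WT ABA 1 and WT ABA 2, 14 of 408 tested genes were called in Group C (3.43%, against 0.298% of all features in that fit) and 22 in Group D (5.39%, against 0.832%).

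Groups C and D compare different libraries, with an estimate of spread shared over all 12, and their calls among these genes went the same way. All 20 genes called in Group C had the same sign in Group D, and all 24 called in Group D had the same sign in Group C. Of the 414 tested genes, 27 were called in either group. In both groups and in the same direction, 17 of the 414 were called, 6 higher and 11 lower in mop1-1. The same held for 177 of the 26401 features tested (0.67%) and for 49 of 19083 annotated genes outside the range (0.257%). Those 177 features were among 239 called in Group D, where the range had 17 of 24. They were among 315 called in Group C, where the range had 17 of 20. Agreement between the groups was thus not limited to these genes. How often the sign agreed among all called features was not tested. Of the 414 genes, another 3 were called in Group C only and 7 in Group D only. Of the 17, 13 were called in both groups in each of the 12 fits that left out 1 library, and the exceptions were Zm00001d003138, Zm00001d003266, Zm00001d003352 and Zm00001d003390.

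**Figure D1:**
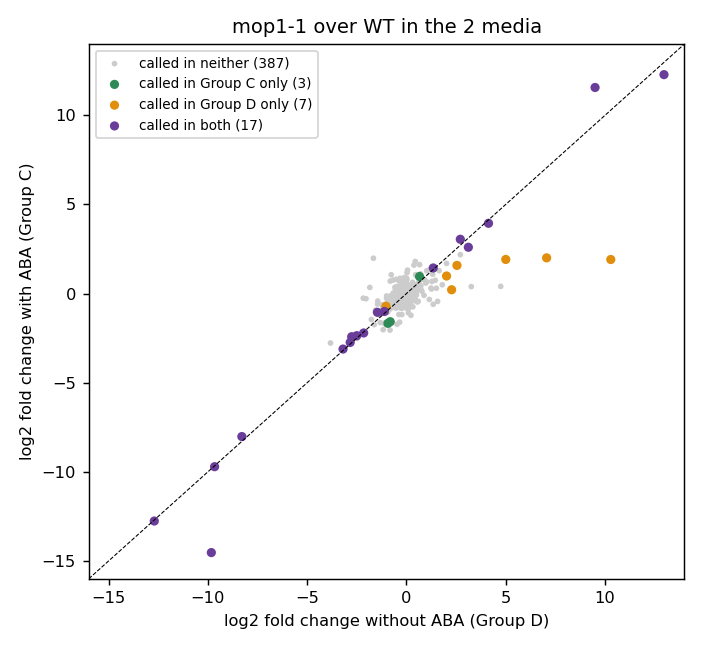
Log2 fold change of mop1-1 over WT without ABA (Group D, x axis) and with ABA (Group C, y axis) for the 414 tested genes, 1 point per gene, with the line of equal change dashed. The 17 genes called in both lie near that line, while several of the 7 called in Group D only, such as Zm00001d003088 at 5.0 against 1.91, lie to its right, and changes against a group with 0 counts depend on the count that the fit adds.

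Over both media, 37 genes were called for genotype, 15 higher and 22 lower in mop1-1, which is 8.94% of those tested against 2.78% of all features and 1.98% of annotated genes outside the range. By direction, 3.62% of the tested genes were higher against 1.79% of all features, and 5.31% were lower against 0.989%. The median size of the log2 difference was 0.256 for the tested genes and 0.173 for all features, and the median with its sign was -0.04 and 0.01. Levels of the 6 WT and 6 mop1-1 libraries did not overlap at 40 of the 414 genes, 18 higher and 22 lower in mop1-1, or 9.66% against 3.58% of all features (2.9% higher and 0.682% lower) and 2.87% of annotated genes outside the range (2.25% and 0.613%). Without WT ABA 1 and WT ABA 2 the genotype effect was called at 25 of 408 tested genes, or 6.13% against 0.981% of all features.

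**Figure D2:**
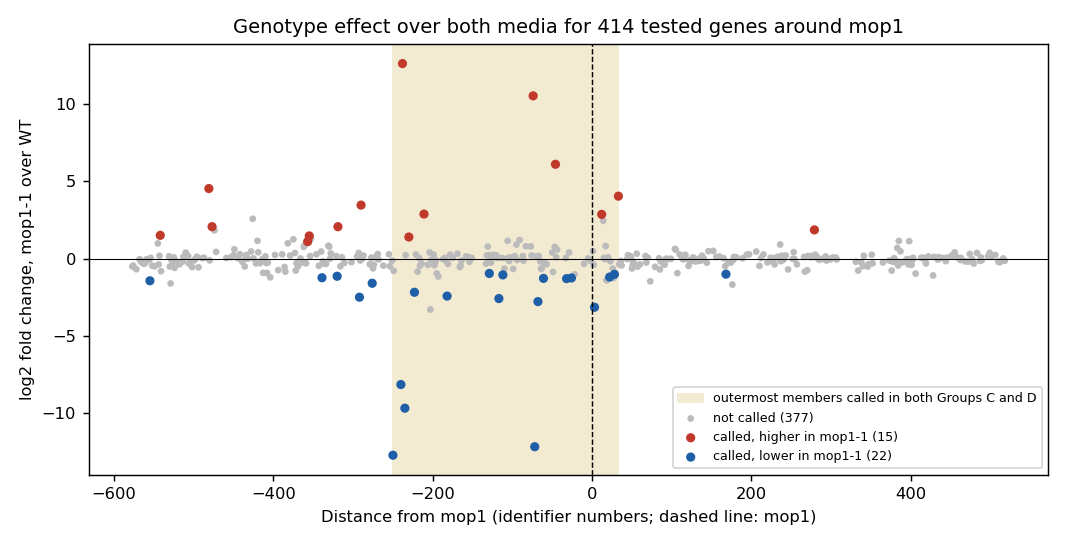
Log2 fold change of the genotype effect over both media (y axis) against the distance of each gene's identifier from that of mop1 (x axis, in identifier numbers), 1 point per tested gene, with called genes in colour and the stretch between the outermost genes called in both Groups C and D shaded. Called genes are spread from Zm00001d002823 to Zm00001d003657, and those of largest change lie in the shaded stretch.

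By position, the genes called in both groups reached from Zm00001d003128, 250 identifiers below mop1, to Zm00001d003411, 33 identifiers above it. This inner segment held 166 of the 599 genes, of which 110 were tested. Its ends were set by the calls, so the counts inside and outside it are a description. The lower end rests in part on WT ABA 1 and WT ABA 2. Without them the Group C log2 fold change was 3.14 at Zm00001d003059 and 4.48 at Zm00001d003088, both below the segment. It was 1.32 at Zm00001d002836 and 1.84 at Zm00001d003003. In the inner segment 20 genes (18.2%) were called in Group C, 19 (17.3%) in Group D and 23 (20.9%, 7 higher and 16 lower) over both media, and the groups of 6 libraries did not overlap at 29 genes (26.4%). Called genes of the inner segment were spread among genes that were not called, with up to 15 tested genes between neighbours such as Zm00001d003196 and Zm00001d003249.

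The 181 genes below the inner segment, 129 of them tested, held called genes without ABA and over both media. In Group D 5 (3.88%) were called, all of them higher in mop1-1, against 0.905% of all features, and over both media 12 (9.3%) were called, 7 higher and 5 lower, against 2.78%. In Group C the edgeR QL test called 0 of them, although 32 had an unadjusted p under 0.05 (16% of all features), DESeq2 called 6 (3.33% of all features) and the edgeR exact test called 5 (2.95%). The difference between the media was itself called at 0 genes, as given with the ABA comparisons.

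Of the 252 genes above the inner segment, 175 were tested, and they were close to the genome at large. The edgeR QL test called 0 in Group C and 0 in Group D, where 23 and 11 had an unadjusted p under 0.05. The share of all features at that p was 16% in Group C and 10.2% in Group D. DESeq2 called 3 and 2 of these genes, against 3.33% and 2.41% of all features, and the edgeR exact test called 2 and 1, against 2.95% and 2.11%. Over both media 2 genes (1.14%) were called, Zm00001d003546, lower in mop1-1, and Zm00001d003657, higher in mop1-1. The next called gene above Zm00001d003411 was Zm00001d003546, with 54 tested genes between them. The median size of the log2 difference was 0.332 below the inner segment, 0.396 in it and 0.172 above it, and the median CPM of the tested genes was 12.7, 11.9 and 11.6.

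**Figure D3:**
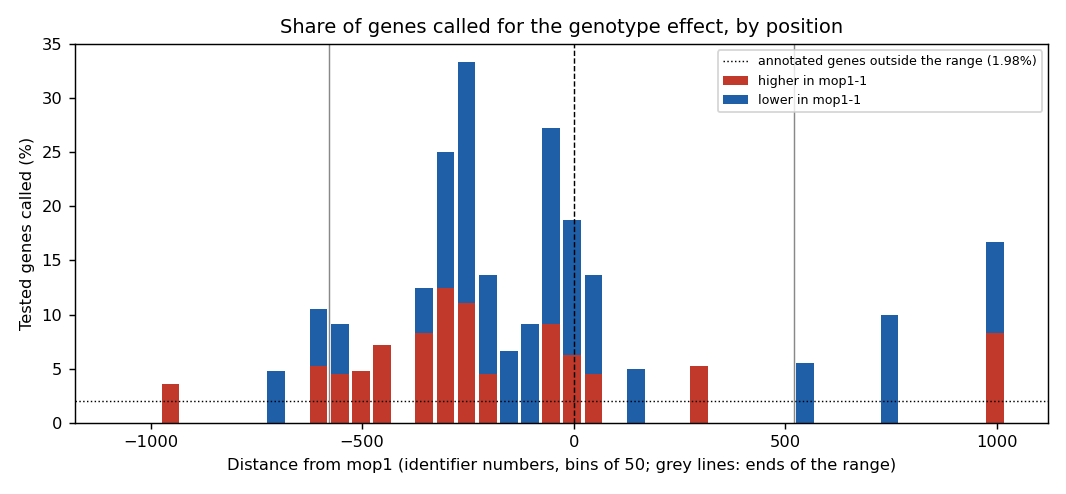
Share of tested annotated genes called for the genotype effect over both media (y axis, percent) in bins of 50 identifiers, by distance from mop1 (x axis), stacked by direction, with grey lines at the ends of the range and a dotted line at 1.98%, the share of annotated genes outside it. The tallest bars stand below mop1, where 6 of 18 genes from 3100 to 3149 and 6 of 22 genes from 3300 to 3349 were called.

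In bins of 50 identifiers, the share called over both media was highest from 3100 to 3149, at 33.3% of 18 tested genes, followed by 27.3% of 22 genes from 3300 to 3349 and 25% of 16 genes from 3050 to 3099. The bin that holds mop1, from 3350 to 3399, had 18.8% of 16 genes called, and that from 3400 to 3449 had 13.6% of 22. From 3450 to 3899 only 2 bins had any gene called, at 5% and 5.26%. A bin was taken as raised when its share was at least 3 times that of annotated genes outside the range, or 5.93%, and 11 of the 22 bins of the range were raised. The run of raised bins was followed from mop1 to either side, passing over single bins that were not raised. By this rule it ended at Zm00001d003411 above and at Zm00001d002774 below, a gene 604 identifiers below mop1 that lies outside the range. On the lower side it passed over the bins from 2850 to 2899 and from 2950 to 2999, and the unbroken part began with the bin from 3000 to 3049, where Zm00001d003021 was the lowest gene called.

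The upper edge was the better placed of these ends. It was again Zm00001d003411 with bins of 25 or of 100 identifiers, with bins raised from 5 times the outside share and with DESeq2, and it moved to Zm00001d003546 with bins raised from 2 times that share and in 3 of the 12 fits without 1 library. The lower edge moved to Zm00001d003021 with bins of 25 identifiers, to Zm00001d002669 with bins raised from 2 times, and to Zm00001d003304 with bins raised from 5 times or with DESeq2. It lay between Zm00001d002669 and Zm00001d003023 in the fits without 1 library. The bin rule alone did not set the range apart, since 15 of 101 bins elsewhere on chromosome 2 were raised. Genes called in both Groups C and D were rarer there, with 4 in those 101 bins and none at all in 97 of them. The 22 bins of the range held 17.

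A few genes had aligned reads in 1 genotype only. A gene was taken as on/off when it had at least 0.58 CPM in each of the 6 libraries of one genotype and at most 0.1 CPM in each of the other 6. Zm00001d003128 had 10.7, 13.5 and 17.9 CPM in WT MS and 12.3, 15.7 and 16.6 CPM in WT ABA, and 0 counts in all 6 mop1-1 libraries. Over the WT libraries it had 5131 counts, so with a floor of 3 counts over the 6 mop1-1 libraries it was at least 1624-fold lower in mop1-1. Zm00001d003140 was its opposite, with 0 counts in all 6 WT libraries and 22.9, 9.31 and 20.8 CPM in mop1-1 MS and 13, 13.8 and 7.48 CPM in mop1-1 ABA. It had 4861 counts over the mop1-1 libraries and was at least 1706-fold higher there. By this rule 1 of the 414 tested genes was silent in mop1-1 and 1 was silent in WT. Among all features, 0.0379% were silent in mop1-1 and 0.0985% silent in WT, and among annotated genes outside the range 0.00524% and 0.0419% were. The fold bounds cover counting error only, and these counts are derived from coverage, so that 3 counts need not be 3 separate fragments. Reads were aligned to the B73 genome alone, so a gene termed silent here is one with few or no aligned reads. Whether reads of a donor copy that differs from B73 failed to align was not tested.

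Zm00001d003140 stood in the only run of at least 3 neighbouring tested genes that were all called, which went from Zm00001d003138 through Zm00001d003140 to Zm00001d003143 and changed direction at each step. Zm00001d003138 had 0.275 to 0.8 CPM in the WT libraries and Zm00001d003143 had 0.553 to 2.69 CPM, and both had 0 counts in the 6 mop1-1 libraries. With the same floor they were at least 67.4-fold and at least 200-fold lower in mop1-1. In all, 3 of the 414 tested genes of the range had 0 counts in every mop1-1 library, against 0.0606% of all features and 0.0105% of annotated genes outside the range. Only 1 of the 414 had 0 counts in every WT library, against 0.17% and 0.0419%, which is close to the share of all features. Their lower levels in WT kept Zm00001d003138 and Zm00001d003143 out of the on/off count.

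Close to this pattern were the neighbouring tested genes Zm00001d003304 and Zm00001d003306 (LOC100284348), with 0 tested genes between them. In mop1-1, Zm00001d003304 had 127, 125 and 137 CPM with MS and 187, 102 and 129 CPM with ABA, and its WT libraries had 0 to 0.248 CPM. Its mean was 134 ± 28.1 CPM in mop1-1 and 0.109 ± 0.102 CPM in WT (SD, n = 6 each), a 1297-fold difference of the pooled CPM. Zm00001d003306 had 24.8, 25.2 and 74.1 CPM in WT MS and 42.6, 67.8 and 40.8 CPM in WT ABA, against 0.101, 0 and 0.0351 CPM in mop1-1 MS and 0 counts in mop1-1 ABA. Its pooled CPM was 1962-fold higher in WT, a ratio that rests on 8 mop1-1 counts, 6 of them in mop1-1 MS 1. Without that library 2 counts were left and the ratio was 6455-fold, with a 95% Poisson interval of 1787 to 53300 for counting error only. Only library mop1-1 MS 1, at 0.101 CPM, kept it out of the on/off count.

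Neighbours that were called often differed in direction, and directions were mixed among the called genes at large (15 higher and 22 lower). Whether neighbours differed more often than other called genes was not tested. Besides the run of 3, there were 6 pairs of neighbouring tested genes that were both called over both media. In 5 of the 6 pairs 1 gene was higher and the other lower in mop1-1. The exception was Zm00001d003021 with Zm00001d003023, where both were higher. No stretch of 4 or more neighbouring genes was called, whichever the direction.

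**Figure D4:**
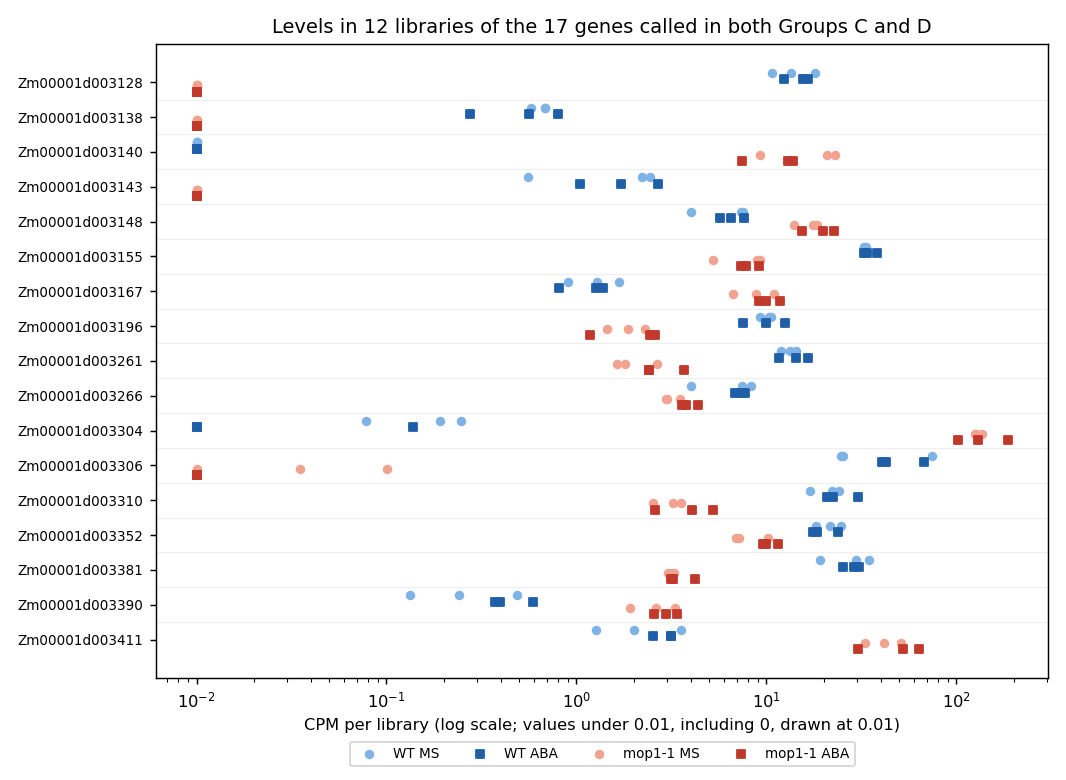
CPM in each of the 12 libraries (x axis, log scale, with values under 0.01 drawn at 0.01) for the 17 genes called in both Groups C and D, in order of position, with circles for MS, squares for ABA, blue for WT and red for mop1-1. The genotypes do not overlap at 16 of the 17 genes, and at Zm00001d003266 1 WT library at 4.03 CPM lies within the mop1-1 range of 2.94 to 4.37 CPM.

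Several genes of the inner segment kept a clear level in both genotypes with a step between them. Zm00001d003155 (LOC100280348) was even within WT, at 32.6, 33.6 and 32.5 CPM in WT MS and 32.7, 34 and 38.3 CPM in WT ABA, against 9.27, 5.25 and 8.87 CPM in mop1-1 MS and 7.78, 7.36 and 9.13 CPM in mop1-1 ABA. The genotypes did not overlap, and the edgeR QL test gave a log2 fold change of -2.18 ± 0.13 (SE) at an adjusted p of 1.43e-06. Nearest above mop1 among the called genes, Zm00001d003381 had 19.2 to 34.6 CPM in WT and 3.04 to 4.2 CPM in mop1-1. Its log2 fold change was -3.15 ± 0.14 (adjusted p = 1.45e-07), with -3.11 in Group C and -3.19 in Group D. Nearest below mop1, Zm00001d003352 had 17.6 to 24.6 CPM in WT and 6.88 to 11.4 CPM in mop1-1, or -1.26 ± 0.12 on the log2 scale (adjusted p = 7.45e-05).

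Farther below mop1, 3 genes were lower in mop1-1 by similar amounts. The mean of Zm00001d003310 was 22.8 ± 4.4 CPM in WT and 3.52 ± 1.01 CPM in mop1-1 (SD, n = 6 each), a log2 fold change of -2.79 ± 0.18. For Zm00001d003261 the means were 13.7 ± 1.77 and 2.43 ± 0.727 CPM and the log2 fold change was -2.59 ± 0.17, and for Zm00001d003196 they were 10 ± 1.66 and 1.97 ± 0.571 CPM and -2.43 ± 0.20. None of the 3 overlapped between genotypes, and their adjusted p in the edgeR QL test was 2.52e-05 or less. Zm00001d003329, at 21.2 ± 2.3 CPM in WT and 12.3 ± 1.59 CPM in mop1-1, was called in Group D only (log2 fold change -1.03, against -0.71 in Group C). Zm00001d003400 (LOC100285837), at 3.45 ± 0.531 and 1.6 ± 0.431 CPM, was called in Group C (-1.58) and not in Group D (-0.82, adjusted p = 0.246).

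Among the genes higher in mop1-1, Zm00001d003411 marked the upper end of the segment. It had 1.26, 3.54 and 2.01 CPM in WT MS and 2.54, 3.16 and 3.16 CPM in WT ABA, against 33, 41.5 and 50.8 CPM in mop1-1 MS and 30.4, 63.3 and 52.2 CPM in mop1-1 ABA. Every mop1-1 library lay above every WT library, and the log2 difference was 4.04 ± 0.25 (adjusted p = 2.07e-06). Zm00001d003167 rose from 1.22 ± 0.319 CPM in WT to 9.58 ± 1.8 CPM in mop1-1 (2.88 ± 0.21, adjusted p = 6.12e-06). Zm00001d003148 rose from 6.46 ± 1.4 to 18 ± 3.17 CPM (1.39 ± 0.16, adjusted p = 2.64e-04), and neither gene overlapped between genotypes. Zm00001d003395, at 117 ± 30.8 CPM in WT and 214 ± 29.4 CPM in mop1-1, was called in Group C (0.95, adjusted p = 0.0236) and not in Group D (0.66, adjusted p = 0.153), and its genotypes overlapped.

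The outermost genes called over both media were less stable. Zm00001d002823, the lowest, had 173 to 1058 CPM in WT and 72.8 to 408 CPM in mop1-1, with overlap, and a log2 fold change of -1.44 ± 0.35 (adjusted p = 0.0399). Its call was lost in 11 of the 12 fits without 1 library, at an adjusted p of up to 0.0928. Zm00001d003657, the highest, had 0.281 to 1.51 CPM in WT and 1.78 to 5.43 CPM in mop1-1, with no overlap (1.85 ± 0.44, adjusted p = 0.0351). That call was lost in 6 of the 12 fits, at up to 0.0912, and neither gene was called in Group C or in Group D alone.

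Only 49 of the 599 genes could be matched to a RefSeq gene in the table used, and 3 of these carry a name other than a locus number. The S-adenosylmethionine synthase gene sam2 (Zm00001d003157) lies in the inner segment, 2 identifiers above Zm00001d003155, and was not called. Its level was 1280 ± 258 CPM in WT and 1605 ± 161 CPM in mop1-1 (0.25 ± 0.11 on the log2 scale, adjusted p = 0.209 by the edgeR QL test). The protein disulfide isomerase gene pdi10 (Zm00001d003654), above the inner segment, had 12.2 ± 2.45 and 14.5 ± 2.71 CPM and was not called (0.17, adjusted p = 0.556). NAC76 (Zm00001d003626), of the NAC family of transcription factors, had 0 to 0.437 CPM and was not tested. The 3 were named after their values were seen.

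Treatment with ABA for 1 h was not seen to change these genes in the edgeR QL test. It called 0 of the 414 in Group A, 0 in Group B and 0 for the interaction, which asks whether the genotype difference depended on ABA. Over all features these counts were also 0 (0%). At an unadjusted p under 0.05 there were 13, 43 and 18 of the 414 genes (3.83%, 7.15% and 4.24% of all features), and the smallest adjusted p was 1, 0.502 and 0.9999. DESeq2 called 1 gene in Group A, Zm00001d003144 (log2 fold change -1.16, adjusted p = 0.0479), 2 in Group B and 0 for the interaction, where it called 0.0493%, 0.258% and 0.102% of all features. The edgeR exact test called 0 in Group A and the same 2 genes in Group B, against 0.00379% and 0.159% of all features. These were Zm00001d003059 (adjusted p = 0.0149 by DESeq2 and 0.0465 by the exact test) and Zm00001d003332 (3.02e-03 and 1.63e-03), both higher with ABA.

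At both of these genes the ABA libraries of WT were split. Zm00001d003059 had 3.4, 3.59 and 3.5 CPM in WT MS, and 12.6, 15 and 3.77 CPM in WT ABA 1, 2 and 3, against 20.5 to 42.4 CPM in mop1-1. Zm00001d003332 had 0 counts in WT MS and 1.2, 1.48 and 0 CPM in WT ABA 1, 2 and 3, against 2.17 to 4.6 CPM in mop1-1. At each gene WT ABA 3 stood with the WT MS libraries, and WT ABA 1 and WT ABA 2 stood between the genotypes. When WT ABA 3 was left out, the edgeR QL test called both genes in Group B (adjusted p = 2.88e-03 for each) and Zm00001d003332 for the interaction (adjusted p = 0.024).

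The same split was followed over the 24 genes called in Group D, which compares MS libraries only. Its estimate of spread came from all 12 libraries, so these calls are not fully separate from the ABA libraries. Each WT ABA library was placed on a scale where 0 is the mean of WT MS and 1 the mean of mop1-1 MS. At the 5 genes below the inner segment (Zm00001d002836, Zm00001d002897, Zm00001d003003, Zm00001d003059 and Zm00001d003088), WT ABA 2 lay at 0.457 to 0.643, and WT ABA 3 lay at -0.0188 to 0.128. WT ABA 1 was at 0.685 and 0.506 for Zm00001d003003 and Zm00001d003059, at 0.207 for Zm00001d002897, and at 0.0583 and 0.0193 for Zm00001d002836 and Zm00001d003088. At the 19 genes of the inner segment the median place was 0.106 for WT ABA 1, 0.0101 for WT ABA 2 and -0.0637 for WT ABA 3, and 10, 4 and 2 of the 19 genes had WT ABA 1, 2 and 3 at 0.1 or more. The segment ends at the outermost genes called in both groups. Genes called in Group D below it are therefore, by definition, not called in Group C. WT ABA levels nearer to mop1-1 make a Group C call less likely. The contrast between the 5 and the 19 genes thus follows in part from how the segment was set.

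**Figure D5:**
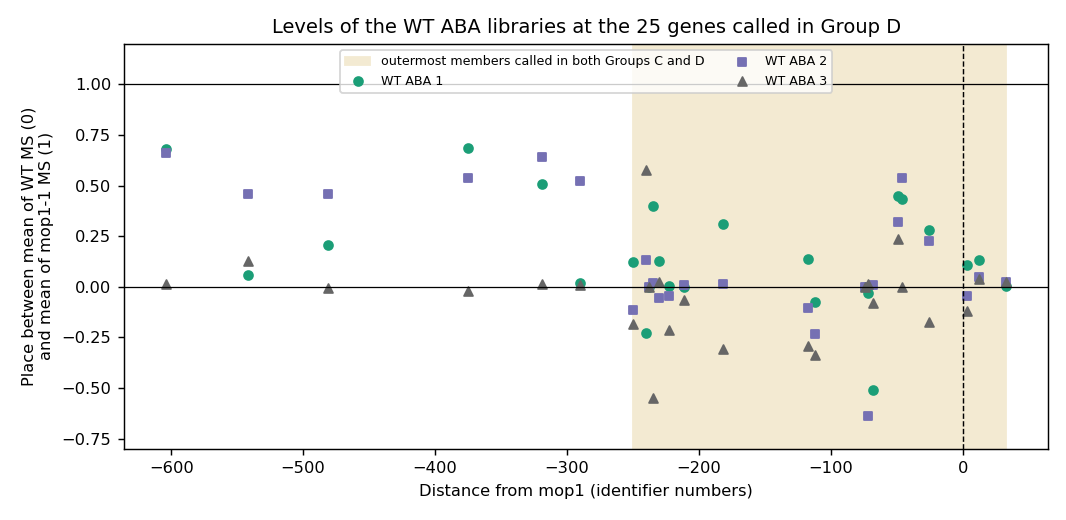
Place of libraries WT ABA 1, 2 and 3 between the mean of WT MS (0) and the mean of mop1-1 MS (1) on the y axis, against distance from mop1 in identifier numbers on the x axis, for the 24 genes called in Group D and Zm00001d002774, just outside the range. WT ABA 2 lies between 0.457 and 0.66 at all 6 genes to the left of the shaded inner segment, and its median over the 19 genes in it is 0.0101. Genes called in Group D to the left of the segment are by definition not called in Group C, so this contrast is a description.

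Zm00001d003088 shows the split in 1 library. It had 1.56, 1.05 and 1.58 CPM in WT MS and 2.28, 25.1 and 1.75 CPM in WT ABA 1, 2 and 3. In mop1-1 it had 46, 50.4 and 44.3 CPM with MS and 28.6, 47.9 and 43.4 CPM with ABA. WT ABA 2 was thus close to the lowest mop1-1 library and far above the other 5 WT libraries. By the edgeR QL test its log2 fold change was 5.0 without ABA (adjusted p = 0.0159) and 1.91 with ABA (adjusted p = 0.243), where WT ABA 2 raised the WT mean. Without WT ABA 1 and WT ABA 2 it was 4.48 in Group C (adjusted p = 2.57e-03), with the remaining WT ABA library assumed to vary like the other groups.

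In that same fit Zm00001d003059 was also called in Group C (3.14, adjusted p = 1.73e-03), as was Zm00001d003332 (adjusted p = 0.0153), for which no fold is given because the remaining WT ABA library had 0 counts. The 14 genes called in Group C then comprised 2 below the inner segment, 12 in it and 0 above it, and 11 of them were among the 20 of the full fit, against 0.298% of all features. For Zm00001d002836 and Zm00001d003003 the Group C log2 fold change was 1.32 and 1.84 without the 2 libraries (adjusted p = 0.556 and 0.459). Zm00001d002897, with 0 counts in WT ABA 3, was not called either (adjusted p = 0.138). Within the inner segment the values of the 2 libraries were as far along the scale at Zm00001d003332 only (0.436 and 0.538), followed by Zm00001d003329 (0.45 and 0.32, with WT ABA 3 at 0.236) and Zm00001d003352 (0.283 and 0.225). What set these WT libraries apart was not tested.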

How the data were processed

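The authors deposited whole-number counts per gene for the 12 libraries of the 1 h experiment, without normalization. Per the labels and the study's methods, paired-end reads of 150 bp from polyA RNA were checked with fastp 0.21.0, aligned by HISAT2 2.2.1 against version 4 of the B73 genome and quantified with StringTie 2.1.4, whose helper script derives counts from coverage. Whether strand was used, and how reads of near-identical copies were shared, is not given in the sources used here. Library sums were 38295994 to 65574775.

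Features with at least 0.58 CPM in at least 3 libraries (26401) were scaled by TMM and fitted with 4 group means and the quasi-likelihood test of edgeR 4.0.16 (R 4.3.3). Adjusted p-values are over all features tested, and thresholds were 0.05 and a log2 fold change of 0.95. The standard error is the size of the log2 fold change divided by the square root of F. Printed CPM use the raw library sums. Scripts were tested on simulated data. No library was a copy of another of its group (chi-square per degree of freedom 30.6 to 186 between replicates). Libraries of different groups were not compared in this way. The place of mop1, identifier number 3378, came from the study's supplementary map of gene identifiers and a RefSeq synonym, and every distance from mop1 rests on it. Positions are identifier numbers, whose order was checked against a RefSeq table of another assembly (Spearman rho 0.99998 over 332 genes). That table holds no descriptions, so gene classes and shoot markers planned from descriptions could not be used, and psad1, rca1 and psbs1 were picked by symbol after it was seen. Assembled loci have no place in this order. The 4 identifiers left out enter no count of the range.

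The genes named are those that are on/off, the 8 of largest change in each direction among genes called in both Groups C and D without overlap and with at least 5 CPM in the higher genotype, called genes with a RefSeq entry, the outermost called genes and those nearest mop1, the 4 called genes of highest CPM in each direction, and the ends of runs. Any other gene was picked with its values in view. The genes and rules were chosen with earlier results of these data known. Alternatives were RLE scaling, other filters, DESeq2 1.42.0, the edgeR exact test, annotated genes alone, a replicate block, calls at any fold, the 6 libraries of a comparison alone, other limits for on/off genes and bins, and each library left out. Leaving out WT ABA 1 and 2 together was added after the data were seen. The p-values measure the spread between the seedling samples of each group.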

Additional observations from a re-analysis of the deposited data

How the results depend on the processing

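The 19 genes named by rule were refitted over both media with RLE, DESeq2, the replicate block and each library left out. Of 285 values 0 reversed and 19 rose above an adjusted p of 0.05, all for Zm00001d002823 and Zm00001d003657. Zm00001d003329 and Zm00001d003395 were under the fold threshold of 0.95 over both media throughout. DESeq2 called 29 genes of the range in Group C, 39 in D, 1 in A and 2 in B, and the edgeR exact test called 28 in C, 35 in D and 2 in B. Over all features the counts in Groups C and D were 878 and 636 by DESeq2 and 780 and 557 by the exact test, against 315 and 239. Without 1 library the counts were 13 to 22 in Group C (13 without mop1-1 ABA 3), 20 to 26 in Group D, 28 to 37 over both media, 13 to 17 in both groups, 0 in Group A, 0 to 2 in Group B and 0 to 1 for the interaction, the highest of the last 2 without WT ABA 3. On/off genes silent in mop1-1 were 2 with on from 0.29 CPM, with off up to 0.2 CPM or with TMM-scaled sums, and 1 to 2 without 1 library (2 without WT MS 1 or mop1-1 MS 1). Those silent in WT were 1 throughout. The lower edge was 3021 (bins of 25), 2669 (raised from 2 times), 3304 (raised from 5 times), 3304 (DESeq2) and 2669 to 3023 without 1 library. The upper edge was 3546 (raised from 2 times) and 3411 to 3546 without 1 library, 3546 without WT ABA 3, mop1-1 MS 3 or mop1-1 ABA 1. The causes were not tested.

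Replicate numbers gave no sign of pairing between samples. The correlation of deviations from the group means was -0.162 to 0.0877 over 18 pairs with the same number and -0.207 to 0.164 over 36 others. With 3 replicates per group this cannot exclude that samples of the same number were handled together. With a replicate block the counts were 16 (Group C), 20 (Group D), 36 over both media, 15 in both groups and 0 for Groups A and B and the interaction, and the calls of Zm00001d002823 (adjusted p = 0.0863) and Zm00001d003657 (0.0588) were lost.

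Depth limits genes near 0: a gene of the range that did not reach 0.58 CPM in at least 3 libraries was not tested. Distances count identifiers, not bases, and 3 replicates per group left small differences undetected.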

Other observations

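Just below the range, Zm00001d002774, chosen after its values were seen, had 7.46, 9.9 and 8.04 CPM in WT MS and 52, 50.7 and 9.43 CPM in WT ABA 1, 2 and 3. In mop1-1 it had 56.3, 93 and 68.2 CPM with MS and 69.4, 135 and 81 CPM with ABA. It was called in Group D (log2 fold change 3.03, adjusted p = 0.0157, edgeR QL test) and not in Group C (1.22, adjusted p = 0.257). On the scale from WT MS to mop1-1 MS, WT ABA 1 and 2 lay at 0.68 and 0.66 and WT ABA 3 at 0.015.

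The gene Zm00001d002735, also below the range, was split within mop1-1. It had 3.67 to 16.9 CPM in the 6 WT libraries. In mop1-1 MS it had 5.31, 0 and 5.91 CPM, and in mop1-1 ABA 0, 0 and 4.77 CPM, so 3 of the 6 mop1-1 libraries had 0 counts and 3 were at a WT level. It was not called (log2 fold change -1.98 over both media, adjusted p = 0.338).

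Within the range, Zm00001d002917 had reads in 1 of the 12 libraries. WT ABA 2 had 239 counts (3.64 CPM) and the other 11 had 0, so the gene was below the filter and was not tested.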
